A study of Mus musculus with 8 samples.

Results

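The globin genes and *Alas2*, the erythroid enzyme of heme synthesis, were followed in 8 RNA-sequencing libraries of cultured mouse fetal liver cells. The members were picked by gene symbol, with earlier results of these data known. They are the alpha-type globins *Hba-a1*, *Hba-a2* and *Hba-x*, the beta-type globins *Hbb-b1*, *Hbb-bs*, *Hbb-bt*, *Hbb-y* and *Hbb-bh1*, and *Alas2*. These are 9 of the 23471 entries of the table. Only 4 of them carried distinct reads above 0, because copies of a globin gene shared the same reads and the 3 embryonic globins were listed at 0 in every library.

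Cells came from livers of B6;129 mixed embryos at E14.5, from controls labelled wild type and from embryos labelled *Lats1*-/-;*Lats2*f/fl;*Alb*-cre (L1L2_Alb). LATS1 and LATS2 are kinases of the Hippo pathway. In L1L2_Alb embryos the *Lats1* deletion is carried by every cell, whereas the Cre that recombines *Lats2* is driven by the promoter of albumin, a gene of hepatoblasts and hepatocytes and not of blood cells. Cultures on collagen gave hepatoblasts (iHBs), 12.5 ng/ml oncostatin M gave hepatocytes (iHPs), over 5 days by the labels and another duration by the methods of the study, and 14 days on Matrigel gave biliary epithelial cells (iBECs). There was 1 control library at each of the 3 stages, 1 L1L2_Alb library of iHBs, and 2 L1L2_Alb libraries each of iHPs and of iBECs. The methods of the study lysed red blood cells before the cells were plated. No source used here says whether 2 libraries of a condition came from separate embryos, so the spread between them may be technical.

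Hemoglobin is built from alpha-type and beta-type globin chains, each bound to heme. In the mouse, primitive red cells of the yolk sac use the embryonic genes *Hba-x*, *Hbb-y* and *Hbb-bh1*, and definitive red cells, which at this age are made in the fetal liver, use *Hba-a1* and *Hba-a2* with the adult beta genes. The adult beta pair is carried as alternative haplotypes, in which the genes are named *Hbb-bs* and *Hbb-bt* or *Hbb-b1* and *Hbb-b2*. *Alas2* makes the first intermediate of heme in erythroid cells, and *Alas1* does so in other cells. Fetal liver preparations therefore hold erythroid cells of many stages beside the hepatoblasts.

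The unit of the values is not stated, and they were taken as RPKM, which are reads per gene after scaling for gene length and library size. Each library held between 18436865 and 33229075 reads in its scaling. The targeted genes were not lower as a pair under the L1L2_Alb label. *Lats1* stood at 10.6 (iHB), 11.2 (iHP) and 5.38 RPKM (iBEC) in the controls, beside 13.9 in iHB, 22.7 and 7.12 in iHP, and 9.69 and 9.91 in iBEC under the L1L2_Alb label. *Lats2* stood at 9.23, 10.1 and 6.9 RPKM in the same controls, beside 19.7, then 17.7 and 27.6, and then 10.9 and 12.4. By genotype *Lats2* was higher (log2 fold change 0.90, limma adjusted p = 0.0312). *Lats1* did not pass (0.44, limma adjusted p = 0.46) and was below its control in iHP replicate 2. The study itself reported lower LATS1/2 expression in cultured L1L2_Alb cells, with raised target genes of YAP, which these kinases inhibit. Reads outside a deleted part would still be counted, and the table does not separate exons. Every genotype below is therefore the one on the label. All 8 libraries carried hepatic markers. *Afp*, the fetal serum protein, was at 2603 to 4219 RPKM in iHBs and iHPs and at 779 to 1391 in iBECs, and *Alb* at 524 to 3088 RPKM in iHBs and iHPs and at 3357 to 6162 in iBECs. The markers of the libraries labelled iBEC went against that name in part: from iHBs to iBECs the duct keratin *Krt7* fell (log2 fold change -2.13, adjusted p = 0.0108) while *Alb* (2.37, adjusted p = 0.0301) and the biliary marker *Spp1* (3.99, adjusted p = 0.00193, all from limma) rose. *Krt7* was at 62.3 RPKM in control iBEC beside 399.6 in control iHB. The name iBEC is therefore used below as a label. All 8 libraries also held the macrophage marker *Lyz2*, at 448 to 2178 RPKM.

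Copies of a definitive globin gene are near-identical in sequence. In GENCODE M21 transcripts, the coding sequences of *Hba-a1* and *Hba-a2* were identical at 428 of 429 bases, with the substitution C381T (*Hba-a1* base, position counted from the start codon, *Hba-a2* base). Those of *Hbb-bs* and *Hbb-bt* were identical at 443 of 444 bases, with the substitution C417T. The stretches around these bases are shown because only reads that cover such a difference, or the ends of the transcripts, tell the copies apart. Capitals mark the base that differs.
Hba-a1 coding bases 366 to 396: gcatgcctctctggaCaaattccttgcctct
Hba-a2 coding bases 366 to 396: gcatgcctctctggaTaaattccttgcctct
Hbb-bs coding bases 402 to 432: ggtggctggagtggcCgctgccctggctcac
Hbb-bt coding bases 402 to 432: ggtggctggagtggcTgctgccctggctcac
The embryonic genes were far from the definitive ones. *Hba-x* matched *Hba-a1* at 266 of 429 coding bases, *Hbb-y* matched *Hbb-bs* at 330 of 444, and *Hbb-bh1* matched *Hbb-bs* at 329 of 444. No window of 36 bases was shared between an embryonic and a definitive globin transcript, whereas *Hba-a1* shared 467 of its 664 windows with *Hba-a2* and *Hbb-bs* shared 395 of its 593 with *Hbb-bt*.

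In the values, 3 pools of globin reads could be told apart. The alpha pair and the beta pair were alike to the same degree in coding sequence, at 99.8% each. Yet *Hba-a1* and *Hba-a2* shared their reads, while the ratio of *Hbb-bt* to *Hbb-bs* RPKM ranged from 1.46897 to 4.05714. Why the pairs differed in this was not tested. The RPKM of *Hba-a1* was 1.00716 times that of *Hba-a2* in all 8 libraries, and that of *Hbb-b1* was 1.01268 times that of *Hbb-bs*, the constant ratios that 1 set of reads divided by 2 gene lengths gives. Whole reads were obtained at lengths of 631 bases for *Hbb-b1*, 639 for *Hbb-bs* and 630 for *Hbb-bt*, and whole reads shared between 2 copies at 559 bases for *Hba-a1* and 563 for *Hba-a2*, to within 1.4e-07 of a read. The pools are called alpha (*Hba-a1* and *Hba-a2* together), beta-s (*Hbb-bs* and *Hbb-b1*, the same reads) and beta-t (*Hbb-bt*). *Hbb-b2*, not a member, had the values of *Hbb-bt* in every library. Reads common to beta-s and beta-t may have been counted in both, so their sum can overstate beta reads, by the same rule in every library.

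The promoters are shown as sequence background, and a link between their motifs and the levels given below was not tested. The 120 bases before the start of each gene are printed 5′ to 3′ on the strand of the gene, from RefSeq (build GRCm38.p6), for 1 alpha gene, both adult beta genes, 1 embryonic gene and *Alas2*. Capitals mark 4 motifs on either strand: CACCC (short form of the site of KLF-family factors), CCAAT (site of CCAAT-binding factors), TATAA (site of the TATA-binding protein) and AGATAA (site of GATA factors).
Hba-a1, chr11:32283552-32283671, plus strand: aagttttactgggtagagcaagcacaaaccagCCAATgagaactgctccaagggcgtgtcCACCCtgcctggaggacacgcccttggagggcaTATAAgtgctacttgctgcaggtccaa
Hbb-bs, chr7:103827929-103828048, minus strand: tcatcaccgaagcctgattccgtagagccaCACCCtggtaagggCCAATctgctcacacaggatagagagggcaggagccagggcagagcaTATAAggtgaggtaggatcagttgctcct
Hbb-bt, chr7:103813924-103814043, minus strand: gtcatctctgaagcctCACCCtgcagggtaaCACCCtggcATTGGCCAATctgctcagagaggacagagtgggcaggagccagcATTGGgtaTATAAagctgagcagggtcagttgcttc
Hbb-y, chr7:103853208-103853327, minus strand: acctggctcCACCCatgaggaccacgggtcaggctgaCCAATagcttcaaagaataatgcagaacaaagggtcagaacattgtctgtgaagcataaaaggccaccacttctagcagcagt
Alas2, chrX:150547297-150547416, plus strand: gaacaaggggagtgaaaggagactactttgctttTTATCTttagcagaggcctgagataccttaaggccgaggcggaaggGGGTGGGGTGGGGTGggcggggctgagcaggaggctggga
*Hba-a1*, *Hbb-bs* and *Hbb-bt* each held CACCC together with CCAAT and TATAA in this window, a combination found in 0.688% of 32851 promoters of the same length. Singly, CACCC was in 31.7% of promoters, CCAAT in 21.3%, TATAA in 11.8% and AGATAA in 4.36%. The *Hba-a2* window was identical to that of *Hba-a1* over 117 of 117 aligned bases, shifted by 3 bases. *Hbb-bs* and *Hbb-bt* were identical at 88 of 119 aligned bases. *Hbb-y* held CACCC and CCAAT, *Hba-x* CACCC and TATAA, and *Alas2* 3 matches to CACCC and 1 to AGATAA, all 4 on the opposite strand. In *Hbb-bt*, 2 CCAAT matches on opposite strands adjoined, and in *Alas2* the 3 CACCC matches followed each other without a gap. A match is only a match of letters.

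No embryonic globin was detected. *Hba-x*, the zeta-type embryonic alpha gene, and *Hbb-y* and *Hbb-bh1*, the embryonic beta genes, were at 0 RPKM in all 8 libraries, and so were *Hbb-bh2* and *Hbq1a* of the same clusters. The embryonic share of globin reads was therefore 0% at each stage and in each genotype, and the same held within the alpha cluster and within the beta cluster. The precision of this 0 depended on how many globin reads a library held. In control iHB 0 of 4168 globin reads were embryonic, which allows a share of up to 0.072%. In L1L2_Alb iBEC replicate 1, by its label, there were 0 of 32, which allows up to 9.38%. The limits of the other 6 libraries lay between 0.11% and 3.26%, and all these limits cover counting error only. A difference in embryonic share between stages or genotypes was therefore not detectable at this depth. The limits assume that reads of the embryonic genes would have been counted, which rows at 0 in every library cannot show. In all, 3442 genes were at 0 in every library. Beta reads counted in both pools would make the limits too low. *Hbq1b*, a theta-type gene of the alpha cluster, was listed at 0.235 RPKM in control iHB and 0.14 in the library labelled L1L2_Alb iHB and at 0 in the other 6 libraries.

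The definitive globins were present in every library, at levels that ranged widely. *Hba-a1*, an adult alpha gene, was at 67.1 RPKM in control iHB, 16.4 in iHB labelled L1L2_Alb, 48.3 in control iHP, 4.61 and 13.1 in the pair of iHPs labelled L1L2_Alb, 1.13 in control iBEC, and 0.691 and 2.33 in those labelled L1L2_Alb iBEC. *Hbb-bs*, an adult beta gene, was at 36.8, 4.58, 19.3, 0.679, 2.13, 0.895, 0.242 and 0.394 RPKM in the same order. *Hbb-bt*, its neighbour, was at 76.1, 8.96, 48.9, 1.55, 3.13, 1.86, 0.491 and 1.6 RPKM. Control iHB and control iHP were the highest libraries for all 3, and for both beta genes the library labelled L1L2_Alb iBEC replicate 1 was the lowest, as it was for *Hba-a1*. In control iHB, *Hbb-bt* lay above 92.4% of the genes with a value over 0, and in the library labelled L1L2_Alb iBEC replicate 1 above 19%.

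**Figure D1:**
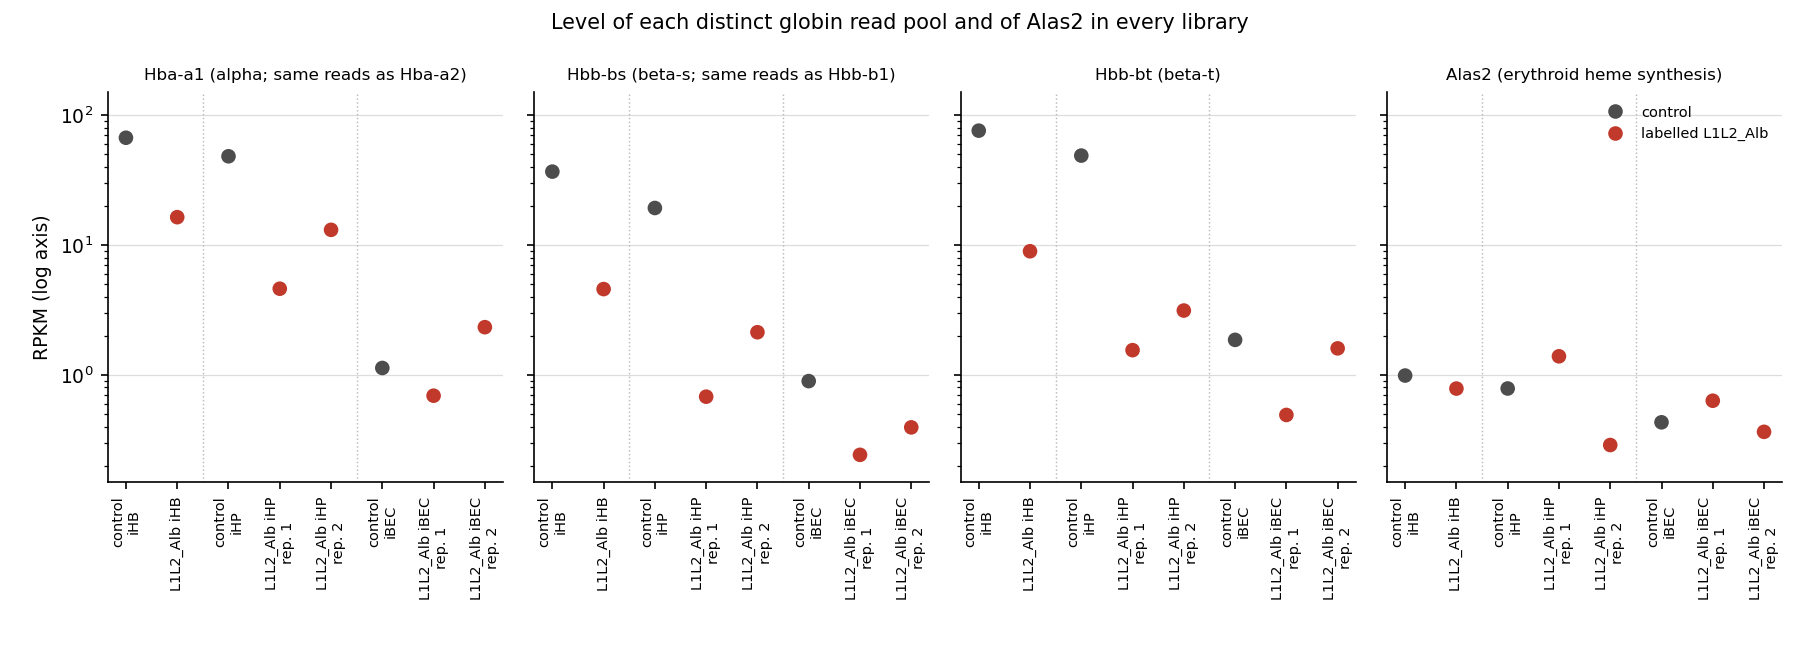
RPKM on a log axis of *Hba-a1*, *Hbb-bs*, *Hbb-bt* and *Alas2* (panels) in each of the 8 libraries, with controls in grey and libraries labelled L1L2_Alb in red and dotted lines between stages. The globins range from 76.1 RPKM (*Hbb-bt*, control iHB) to 0.242 RPKM (*Hbb-bs*, L1L2_Alb iBEC replicate 1), whereas *Alas2* stays between 0.288 and 1.39 RPKM.

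Summed over the 3 pools, definitive globin reads numbered 4168 in control iHB and 772 in its L1L2_Alb-labelled counterpart. In iHPs there were 2720 in the control and 121 and 382 in the libraries labelled L1L2_Alb. In iBECs there were 100 in the control and 32 and 92 in the libraries labelled L1L2_Alb. Scaled to library size as RPM, the reads of a gene set in each 1e6 reads of the library, this was 146 (95% exact Poisson interval 142 to 151, counting error only) in control iHB and 3.01 (2.45 to 3.66) in control iBEC. Even the highest library thus held 0.0146% of its reads in globins. The 2 libraries of a condition differed beyond their counting intervals, with 6.56 (5.45 to 7.84) and 17.9 (16.2 to 19.8) RPM in iHPs labelled L1L2_Alb and 1.24 (0.846 to 1.75) and 3.86 (3.11 to 4.73) in iBECs labelled L1L2_Alb. Fewer erythroid cells and less globin RNA in each cell cannot be told apart in these bulk libraries.

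In libraries labelled L1L2_Alb the beta-globins were lower than in controls. *Hbb-bs* fell by a log2 fold change of -2.09 (standard error, SE, 0.482; adjusted p = 0.0337 from limma on log2(RPKM + 1), 8 libraries, stage as covariate) and *Hbb-bt* with -2.44 (SE 0.577, limma adjusted p = 0.036). Both were below the control of their stage in 5 of 5 libraries labelled L1L2_Alb. *Hba-a1* stood at -1.38 on this scale (SE 0.533, limma adjusted p = 0.144), was below its control in 4 of 5 libraries, and did not pass the threshold of 0.05. So 2 of the 3 read pools were called, against 3.37% of the 13421 genes tested that were called lower. Both are beta pools that may hold the same reads in part, so they do not count as 2 separate members. The median of all genes was 0.058, and upper-quartile scaling moved it to -0.042 and left both calls.

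Both calls were lost on leaving out the iHB stage (adjusted p = 0.163 for each, limma) or the iHP stage (0.237 and 0.258). Without L1L2_Alb iHP replicate 1 the adjusted p was 0.0595 for *Hbb-bs* and 0.0688 for *Hbb-bt*, without L1L2_Alb iHP replicate 2 it was 0.062 and 0.072, and in each case 0 of the 3 pools passed in limma. With the 2 iBEC libraries and their control left out, all 3 pools passed, *Hba-a1* with a log2 fold change of -2.26 (limma adjusted p = 0.0176).

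Within a stage there was 1 control library to compare with, so the values below carry no test. In iHBs, the RPM of definitive globins was 5.44-fold lower than in the control. In iHPs it was 14.8-fold lower in replicate 1 and 5.42-fold lower in replicate 2. In iBECs it was 2.43-fold lower in replicate 1, whereas replicate 2 stood at 3.86 against 3.01, a log2 difference of 0.36 with a counting interval from -0.23 to 0.95. The difference in iBECs thus had no common direction. Among the single genes, *Hbb-bt* showed the largest ratios of the 3, at 8.49-fold in iHBs and 31.5-fold and 15.6-fold in iHPs, beside 4.09-fold, 10.5-fold and 3.7-fold for *Hba-a1*. Of all genes tested, 1.7% were lower by over 2 on the log2(RPKM + 1) scale in the iHB pair, and 3.18% and 4.28% in the iHP pairs.

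Whether the genotype difference changed with stage was tested by a moderated F test on the 6 conditions. The adjusted p was 0.906 for *Hba-a1*, 0.579 for *Hbb-bs* and 0.487 for *Hbb-bt* (limma, unadjusted 0.0484, 0.0106 and 0.00446). In all, 0 of 13421 genes (0%) passed, and 733 had an unadjusted p under 0.05. This test had 2 residual degrees of freedom.

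In the stage fit, and in summed RPM under each genotype label, the definitive globins were lowest in iBECs. Single libraries departed from this order: L1L2_Alb iHP replicate 1 held 1.55 RPKM of *Hbb-bt* and 0.679 RPKM of *Hbb-bs*, below control iBEC at 1.86 and 0.895. From iHBs to iBECs *Hba-a1* fell by a log2 fold change of -3.68 (SE 0.664, adjusted p = 0.018), *Hbb-bs* with -2.94 (SE 0.601, adjusted p = 0.0288) and *Hbb-bt* with -3.23 (SE 0.72, adjusted p = 0.0389, all from limma with genotype as covariate). All 3 pools were called, against 2.78% of genes called lower, and the beta pools may again hold the same reads in part. In RPM of definitive globins, control iBEC was 48.7-fold below control iHB, and the libraries labelled L1L2_Alb iBEC were 21.8-fold and 6.97-fold below the iHB library of that label. The median of all genes in this comparison was -0.253 and moved to -0.003 under upper-quartile scaling. *Hbb-bt* then stood at an adjusted p of 0.0589, and without L1L2_Alb iBEC replicate 1 at 0.0697 (limma), while the other 2 pools kept their calls in both. With the libraries of a condition averaged it stood at 0.0602.

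From iHBs to iHPs, 0 of the 3 pools and 0 of the 13421 genes (0%) passed the threshold in limma, with 1158 genes at an unadjusted p under 0.05. The log2 fold changes were -0.90 for *Hba-a1* (adjusted p = 0.773), -1.26 for *Hbb-bs* (adjusted p = 0.619) and -1.37 for *Hbb-bt* (adjusted p = 0.661). In RPM control iHP was 1.51-fold below control iHB, and the 2 libraries labelled L1L2_Alb iHP were 4.1-fold and 1.5-fold below the iHB library of that label.

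From iHPs to iBECs *Hba-a1* fell by a log2 fold change of -2.78 (SE 0.589, limma adjusted p = 0.0415), and the beta genes did not pass, at -1.68 for *Hbb-bs* (adjusted p = 0.118) and -1.85 for *Hbb-bt* (adjusted p = 0.142). Thus 1 of 3 pools was called, beside 1.67% of genes called lower. Without L1L2_Alb iHP replicate 2 the adjusted p of *Hba-a1* was 0.0716, and without L1L2_Alb iBEC replicate 1 it was 0.11 (limma). A difference between alpha and beta genes in this step was not tested.

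**Figure D2:**
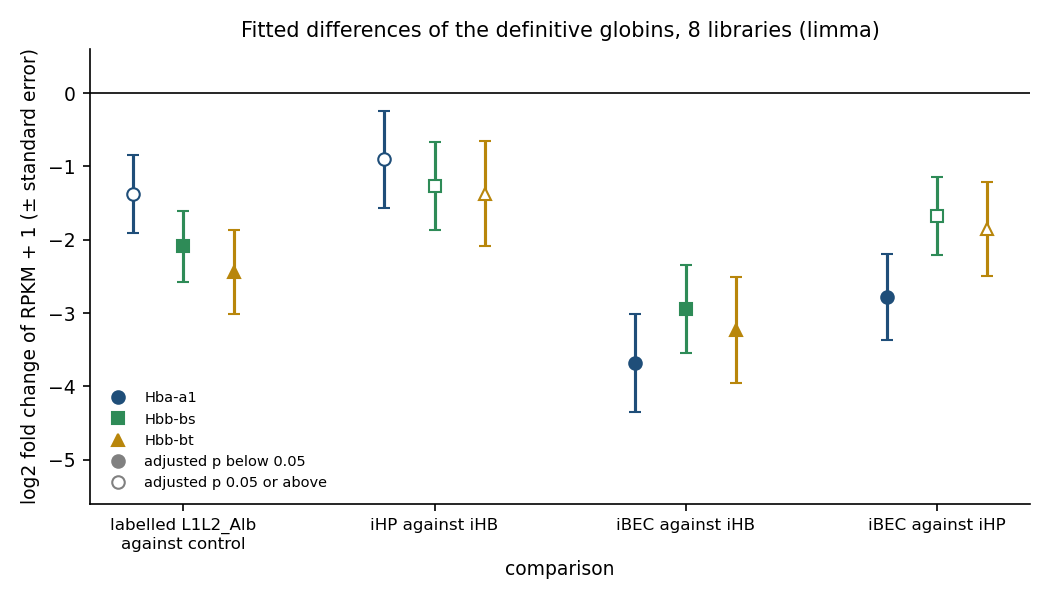
Log2 fold change on the log2(RPKM + 1) scale with its standard error (limma, 8 libraries) for *Hba-a1*, *Hbb-bs* and *Hbb-bt* in the 4 comparisons on the horizontal axis. Filled symbols have an adjusted p below 0.05: both beta genes by genotype, all 3 genes from iHB to iBEC, and *Hba-a1* from iHP to iBEC.

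The balance of alpha to beta reads differed between the labels. Alpha reads made up 51.2% of definitive globin reads in control iHB (95% exact Clopper-Pearson interval 49.7 to 52.8%) and 68.1% (64.7 to 71.4%) in its L1L2_Alb-labelled counterpart. In iHPs the share was 55.6% (53.7 to 57.5%) in the control and 78.5% (70.1 to 85.5%) and 81.4% (77.1 to 85.2%) in the libraries labelled L1L2_Alb. In iBECs it was 42% (32.2 to 52.3%) in the control and 62.5% (43.7 to 78.9%) and 67.4% (56.8 to 76.8%) in the libraries labelled L1L2_Alb. All 5 libraries labelled L1L2_Alb lay above all 3 controls, and the intervals of a stage overlapped only for iBEC replicate 1. This is a description, since the share was not chosen apart from these values, and no test was run on it. As beta reads may be counted in both beta pools, the level of the share cannot be read as a ratio of chains. The labels do not say which beta haplotypes the mixed embryos carried. An effect of haplotype on this share or on the beta calls by genotype was not tested.

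Within the beta reads the balance of the 2 genes differed less. Beta-t made up 67.1% (65 to 69.1%) of beta reads in control iHB, 71.4% (68.7 to 73.9%) in control iHP and 67.2% (53.7 to 79%) in control iBEC. In the libraries labelled L1L2_Alb it ranged from 59.2% to 80%, and the intervals of these libraries overlapped those of their controls. Reads counted in both beta pools would even out this share, so its small differences cannot be read as a steady balance.

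**Figure D3:**
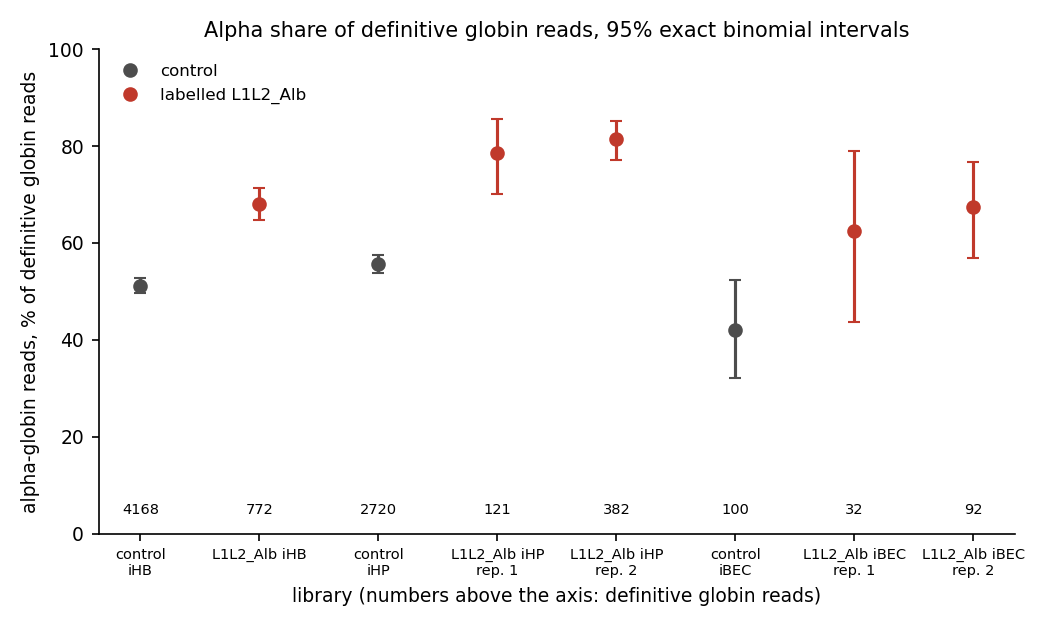
Alpha reads as a percentage of definitive globin reads in each library, with 95% exact binomial intervals for counting error and the number of definitive reads above the horizontal axis. Controls (grey) lie between 42% and 55.6%, and libraries labelled L1L2_Alb (red) between 62.5% and 81.4%.

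*Alas2* shared the order of the globins in the controls, but against the controls it had no common direction in iHPs or in iBECs labelled L1L2_Alb. In RPM it was at 1.93 (95% exact Poisson interval 1.46 to 2.52) in control iHB and 0.843 (0.56 to 1.22) in control iBEC. In RPKM it was at 0.988 in control iHB, 0.784 in iHB labelled L1L2_Alb, 0.785 in control iHP, 1.39 and 0.288 in the pair of iHPs labelled L1L2_Alb, 0.431 in control iBEC, and 0.632 and 0.364 in those labelled L1L2_Alb iBEC. These values stood for 55, 44, 43, 50, 12, 28, 32 and 17 reads at a length of 1956 bases, to within 0.014 of a read. The highest and the lowest library were thus both iHPs labelled L1L2_Alb. With a mean of 0.707 RPKM *Alas2* did not reach the minimum of 1 RPKM for the fit. Without that filter its log2 fold change by genotype was -0.03 (SE 0.209, limma adjusted p = 0.953) and from iHBs to iBECs -0.35 (SE 0.26, limma adjusted p = 0.48). For each *Alas2* read there were 75.8 definitive globin reads in control iHB, 63.3 in control iHP and 3.57 in control iBEC, and between 1 and 31.8 in the libraries labelled L1L2_Alb.

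Over the 8 libraries, Pearson's r of log2(RPKM + 1) was 0.994 between *Hbb-bs* and *Hbb-bt*, 0.943 between *Hba-a1* and *Hbb-bs*, 0.938 between *Hba-a1* and *Hbb-bt*, and from 0.338 to 0.339 between *Alas2* and each of them. These points share libraries and their depth, and the values are a description. Reads counted in both beta pools would also raise r between *Hbb-bs* and *Hbb-bt*. The genes most like *Hba-a1* by this measure, globins left out, were *Zfp207* (r = 0.982), *Spp2* (0.981), *Lin28a* (0.970), *Adpgk* (0.962), *Gins3* (0.962), *Etv6* (0.961), *Itga2b* (0.958), *Nup43* (0.958), *Wdr41* (0.954) and *Guca2b* (0.954). *Lin28a*, an RNA-binding protein of fetal and embryonic cells, went from 4.45 RPKM in control iHB to 0.233 in the library labelled L1L2_Alb iBEC replicate 1. *Itga2b*, an integrin of megakaryocytes and their precursors, went from 33.1 RPKM in control iHB to 4.33 in control iBEC. Most like *Alas2* were *Zfp654* (r = 0.983), *U2surp* (0.979), *G530011O06Rik* (0.976), *Gm6710* (0.975), *Lrif1* (0.975), *Zfp944* (0.974), *Mier3* (0.972), *Hook3* (0.972), *1810026B05Rik* (0.969) and *Lrig2* (0.968). As for *Alas2*, *U2surp*, a splicing factor, was highest in L1L2_Alb iHP replicate 1 at 24.3 RPKM and lowest in replicate 2 at 8.82 RPKM.

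The other enzymes and carriers of heme synthesis, most of which serve all cells, did not pass. Of 9 genes tested, 0 passed by genotype and 0 between any 2 stages in limma, with a median log2 fold change by genotype of -0.11. Their summed level lay between 129.6 and 172 RPKM in the 8 libraries, and single genes varied more. *Slc25a37*, a mitochondrial iron carrier used most by erythroid cells, went from 18.6 RPKM in control iHB to 5.36 in L1L2_Alb iHP replicate 2. *Alas1*, the first enzyme outside erythroid cells, had the highest mean of these 9 at 33.8 RPKM, followed by *Urod* at 27.8 and by *Fech*, which inserts the iron, at 26.4. *Alas1* was at 48.1 RPKM in control iHP against 19.6 and 17.4 in the libraries labelled L1L2_Alb iHP, and its log2 fold change by genotype was -0.60 (limma adjusted p = 0.167).

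Erythroid markers were low everywhere, and their sum without *Alas2* was highest in control iHB and control iHP. Of 9 markers followed, 8 were in the table and *Ahsp*, an alpha-chain chaperone, was not. *Gata1*, the master regulator of red cell genes, was at 3.4 RPKM in control iHB, 0.128 in iHB labelled L1L2_Alb, 2.27 in control iHP, 0.2 and 0.345 in the pair of iHPs labelled L1L2_Alb, 0.127 in control iBEC, and 0.142 and 0.0441 in those labelled L1L2_Alb iBEC. *Rhag*, a membrane channel of red cells, was at 3.08, 0.542, 2.16, 0.164, 0.263, 0.195, 0.117 and 0.0724 RPKM in the same order. Control iHB and control iHP were the highest libraries for both genes. Without *Alas2*, the 7 markers summed to 12.7 RPKM in control iHB, 7.31 in control iHP and 0.968 in control iBEC, and to between 0.931 and 1.95 in the libraries labelled L1L2_Alb. All 8 markers were lower than the control in the iHB library labelled L1L2_Alb and 7 of 8 in each iHP library, beside 54.1%, 46.7% and 50.6% of all genes above 0. In iBECs 3 and 5 of 8 were lower, beside 28.1% and 25.5% of all genes. These counts are a description, as the list was chosen with earlier results of these data known. None of the 8 reached the minimum mean of 1 RPKM, so none was tested in the fit.

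Of the 14 erythroid transcription factors and cofactors, 9 were tested. By genotype 7 had a lower value and 2 were called lower, beside 3.37% of all genes, with a median of -0.91 beside 0.058 for all genes. The filter on the mean of all libraries can favour genes that are high in the controls, so this count and median are a description. *Gata2*, itself at -0.91, was at 4.17 RPKM in control iHB, 3.19 in control iHP and 1.22 or lower in the other 6 libraries. *Nfe2*, a leucine zipper factor of erythroid cells and megakaryocytes, fell by a log2 fold change of -1.72 (SE 0.394, limma adjusted p = 0.033), from 21.9 to 8.88 RPKM in iHBs, from 13.1 to 0.976 and 0.9 in iHPs, and from 4.51 to 1.02 and 3.02 in iBECs. *Lmo2*, an adaptor of the GATA1 and TAL1 complex, fell with -1.27 (SE 0.318, limma adjusted p = 0.0437). *Zfpm1*, a partner of GATA1, had a value of 1.13 (adjusted p = 0.0649) and *Ldb1*, which is used in many tissues, one of -0.35 (adjusted p = 0.39). By stage, 0 of the 9 passed in any comparison. *Bcl11a*, which silences embryonic-type globins, had a mean of 0.321 RPKM, with 1.41 RPKM in control iHB and 0.802 in control iHP, and was 0.149 or lower in the other 6 libraries.

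Red cell membrane and cytosol genes did not pass. Of 28 followed, 22 were in the table, 8 were tested and 0 were called by genotype or by stage, with a median by genotype of -0.32. The nearest by genotype was *Car1*, a carbonic anhydrase of red cells, at 4.68 RPKM in control iHB, 1.38 in iHB labelled L1L2_Alb, 5.31 in control iHP and 0.303 or lower in the other 5 (log2 fold change -1.41, limma adjusted p = 0.0551). It reached the minimum mean for the fit largely through control iHB and control iHP. *Tfrc*, the transferrin receptor that brings iron into dividing and erythroid cells, was the highest with a mean of 25 RPKM, then *Epb4.1* at 21.9 and *Car2* at 12.5. By stage the nearest was *Xk*, a membrane protein of red cells and other tissues, with a log2 fold change of -1.07 from iHPs to iBECs (limma adjusted p = 0.0503). By genotype *Tfrc* had a log2 fold change of -1.05 (limma adjusted p = 0.0716).

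Genes that clear hemoglobin and heme are made by hepatocytes and macrophages. By genotype 2 of 8 fell, beside 3.37% of all genes: *Hpx*, the serum carrier of heme (log2 fold change -3.01, SE 0.34, adjusted p = 0.00283), and *Hp*, the serum carrier of hemoglobin (-2.57, SE 0.401, adjusted p = 0.00882, both from limma). From iHBs to iBECs the same genes rose by 5.94 (adjusted p = 6.12e-04) and 3.68 (limma adjusted p = 0.00549), the 2 of 8 called higher beside 2.94% of all genes, while the definitive globins fell. *Hpx* was at 499 RPKM in control iHB, 3390 in control iHP and 22015 in control iBEC, and at 37.9, 535, 508, 1974 and 5041 RPKM under the L1L2_Alb label. *Hmox1*, which opens the heme ring, was the third most abundant of the list with a mean of 238 RPKM and did not pass (log2 fold change 0.90, adjusted p = 0.193).

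Markers of other blood cells moved with the globins in part, and their share in the result was not tested. Neutrophil markers summed to 14746, 10011 and 3307 RPKM in control iHB, iHP and iBEC, and to 4786, 463, 51.5, 116 and 2622 RPKM in the libraries labelled L1L2_Alb. All 9 tested were lower by genotype, with a median log2 fold change of -3.38, and 0 passed in limma (lowest adjusted p = 0.0588, *Ctsg*). The most abundant were *S100a9*, *S100a8* and *Ngp*, with means of 2197, 1433 and 425 RPKM. Between the 2 iHP libraries labelled L1L2_Alb, neutrophil markers and globins went opposite ways. Replicate 1 held 463 RPKM of neutrophil markers and 6.56 RPM of globins, and replicate 2 held 51.5 RPKM and 17.9 RPM. Between the 2 iBEC libraries of that label they went the same way. There, replicate 1 held 116 RPKM and 1.24 RPM, and replicate 2 held 2622 RPKM and 3.86 RPM. Mast cell and basophil markers summed to 127, 70.5 and 6.52 RPKM in the controls and to 3.87 to 9.1 RPKM in the libraries labelled L1L2_Alb. *Cpa3* or *Tpsb2* was at 0 in some of the latter, and *Tpsb2* also in control iBEC. *Prg2*, a granule protein of eosinophils and basophils, held 108 RPKM of the sum in control iHB and 50.6 in control iHP. It was the 1 called lower of 4 tested, beside 3.37% of all genes (log2 fold change -3.74, SE 0.641, adjusted p = 0.0119 from limma). Of the 4, 3 were lower and *Mcpt8* was higher (0.19, limma adjusted p = 0.693). *Cpa3* and *Kit* reached the minimum mean for the fit through control iHB and control iHP, at 9.36 and 10.2 RPKM and at 5.96 and 5.56 RPKM. *Cma1*, not tested, was at 0.49 RPKM in control iHB and 2.3 in iHB labelled L1L2_Alb. In iHPs it was at 0.133 in the control and 0.807 and 1.09 under that label.

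Megakaryocyte markers, whose cells share a precursor with red cells, summed to 184, 165 and 57.9 RPKM in the controls and to 89.1, 37.6, 74.9, 65.4 and 210.2 RPKM in the libraries labelled L1L2_Alb. All 6 tested were lower by genotype and 0 passed in limma, with *Pf4* the most abundant at a mean of 78.1 RPKM. *Gp9* reached the minimum mean for the fit through control iHB and control iHP, at 6.85 and 6.65 RPKM. Macrophage markers summed to 2370 to 3771 RPKM in the controls and 1214 to 5405 RPKM in the libraries labelled L1L2_Alb, with 8 of 13 tested higher, 5 lower and 0 called. Endothelial markers had 0 of 3 called by genotype, and *Lyve1* and *Pecam1* led the list at means of 9.43 and 1.38 RPKM. Mesenchymal markers had 8 of 8 lower and 0 called, with *Col1a1* the most abundant at a mean of 837 RPKM.

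Hepatoblast and hepatocyte markers differed little in sum, at 15017 to 18944 RPKM in the controls and 14209 to 18204 RPKM in the libraries labelled L1L2_Alb. Single genes moved in opposite directions within this sum. In iHBs *Apoa1* was at 2451 RPKM in the control and 8670 under the L1L2_Alb label, beside 3109 and 120.1 for *Serpina1a*. Of 9 tested, 4 were higher by genotype with 0 called, and 5 were lower. The 4 called lower, beside 3.37% of all genes, were *Serpina1a* (-2.42, adjusted p = 0.0391), *Ttr* (-1.95, adjusted p = 0.00445), *Alb* (-1.71, adjusted p = 0.0337) and *Hnf4a* (-1.33, adjusted p = 0.00373, all from limma). Of 5 biliary markers followed, *Krt7* (2.17, adjusted p = 0.00422) and *Krt19* (1.31, adjusted p = 0.0205) rose and *Spp1* (-1.50, adjusted p = 0.0306, all from limma) fell, beside 6.2% of all genes called higher and 3.37% called lower.

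**Figure D4:**
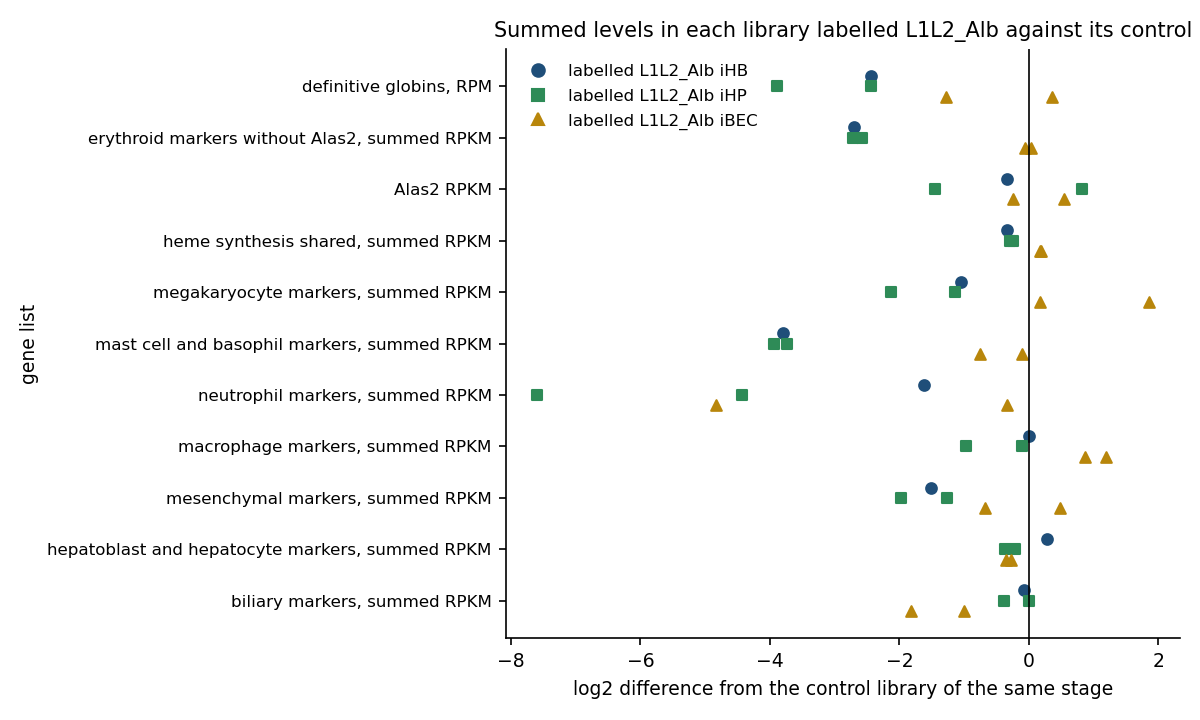
Log2 difference of each library labelled L1L2_Alb from the control library of its stage (horizontal axis, symbols by stage), for the RPM of definitive globins, *Alas2* and the summed RPKM of each gene list (vertical axis). In iHBs and iHPs globins lie between -2.44 and -3.89 and erythroid markers without *Alas2* between -2.57 and -2.71. There, mast cell and basophil markers lie between -3.73 and -3.94 and neutrophil markers between -1.62 and -7.60. Macrophage markers lie between 0.00 and -0.97 and heme synthesis genes between -0.24 and -0.33. In iBECs erythroid markers without *Alas2* lie at -0.06 and 0.03 and globins at -1.28 and 0.36.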

How the data were processed

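Reads of 8 libraries (TruSeq RNA v2) had been mapped by the authors; their processing notes name Bowtie 0.12.2 and mm8 without giving their roles, and the counter is not given in the sources used here. All values lie in a single deposited table, with 1 row a gene and 1 column a library. Its unit is not stated, and the deposited values were taken as RPKM because short genes of known length (RefSeq) gave the same whole number of reads per library, 18436865 to 33229075. This depth bounds what can be said of genes with few reads. Reads shared between globin copies were then recovered by finding, between 200 and 3000 bases, the gene length at which all libraries gave whole reads. No count model was run. A count of 3 reads was the floor for shares at 0.

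Of 23471 entries, 4 under 2 repeated symbols were left out. Values were changed to log2(RPKM + 1), and limma 3.58.1 (R 4.3.3; lmFit, then eBayes using a trend) was applied to the 13421 genes whose mean reached 1 RPKM, on stage and genotype, with 4 residual degrees of freedom. All adjusted p are two-sided, by the Benjamini-Hochberg method over all genes tested, with a threshold of 0.05. A simulation with known fold changes was used to test the procedure. Fold changes on this scale understate those of low genes. A gene low elsewhere can reach the mean of 1 RPKM through the libraries where it is high, so list counts of lower genes are a description. Of the 9 members 5 passed the filter, holding 3 distinct sets of reads. Members and gene lists were chosen with earlier results of these data known. Some genes of the heme synthesis, red cell and biliary lists are not reported here, and all list counts and sums leave them out. Named list genes were the called ones (up to 5 by size) and the 3 with the highest mean in each list, beside 10 genes by likeness; single genes named as low or nearest the threshold, and the erythroid markers named singly, were chosen after their values were seen. Alternatives were a pseudocount of 0.1, no filter, a mean of at least 5 RPKM, upper-quartile scaling, eBayes without trend, and leaving out or averaging libraries. Python 3.11.15, numpy 2.4.6, pandas 2.3.3, scipy 1.17.1 and matplotlib 3.10.9 were used. Promoters came from RefSeq (GRCm38.p6) and transcripts from GENCODE M21, and no coordinate of the values was used.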

Additional observations from a re-analysis of the deposited data

How the results depend on the processing

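No globin changed direction. Of 135 fold changes recomputed for the 3 read pools, 111 kept their side of the threshold, 23 lost their call, 1 gained it and 0 were reversed. The 111 include fold changes that were never called, such as all 30 from iHB to iHP. Among the calls made, *Hbb-bs* and *Hbb-bt* each kept theirs by genotype in 7 of 13 alternatives. From iHB to iBEC, *Hba-a1* and *Hbb-bs* kept theirs in 9 of 10 and *Hbb-bt* in 6 of 10. From iHP to iBEC, *Hba-a1* kept its call in 7 of 12. By genotype, 2 of 3 pools were called with a pseudocount of 0.1, a mean of at least 5 RPKM, upper-quartile scaling and eBayes without trend, and 0 without the filter, with libraries of a condition averaged, and with the iHB or the iHP stage left out. Leaving out 1 library of a pair gave 0 to 2. Averaging leaves fewer samples, and no filter tests 20025 genes. Other causes were not tested. From iHB to iBEC 3 were called and 0 without the filter, 2 with averaged libraries, and 2 to 3 on leaving out a library. From iHP to iBEC 1 was called, and 0 without the filter, with averaged libraries, and in the 4 iHP and iBEC libraries labelled L1L2_Alb alone. Leaving out a library gave 0 to 1. In the last set, the number in the titles as a block gave 1 (*Hba-a1*, adjusted p = 0.0123 against 0.104 without it, limma) and moved all calls from 457 to 911. The differences between the numbered libraries correlated at -0.022 between iHPs and iBECs over 13421 genes, so the numbers were not taken as pairs.

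Over all alternatives the number of genes called went from 132 to 1449 by genotype (1284 in the fit reported), from 492 to 1747 from iHB to iBEC (768), from 56 to 982 from iHP to iBEC (553) and from 0 to 4 from iHB to iHP (0). The test of a stage-dependent genotype effect stayed at 0 members with a pseudocount of 0.1, upper-quartile scaling and eBayes without trend. Scaling chosen after seeing the data moved no single-stage difference in globin reads beyond its counting interval, with iBEC replicate 2 at 0.11. Per length, alpha shares were 45.1 to 58.6% in controls and 65.4 to 83.2% in libraries labelled L1L2_Alb. Leaving out a control library alone leaves its stage without one and was not run. With 4 to 39 beta reads per gene in iBECs, ratios there carry wide counting error.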
